A study of Mus musculus with 39 samples.

Results

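Astrocytes sorted from the nucleus accumbens (NAc) and from tissue labelled PFC, read here as prefrontal cortex, were compared in male mice classed as resilient after chronic social defeat stress. The members were all libraries whose titles read resilient, which gave 7 NAc and 5 PFC libraries, 12 of the 39 in the series. Chronic social defeat exposes a mouse repeatedly to an aggressor, and the animals are classed afterwards by their social behaviour. The other libraries were set beside the resilient ones where a value needed it. They came from susceptible mice (8 NAc and 6 PFC), which had gone through the same stress, and from control mice (7 NAc and 6 PFC). The labels give no strain, age, genotype or drug for any group. Each library carries its own mouse number, odd in PFC and even in NAc, and whether neighbouring numbers stand for tissue of 1 animal is not given. Wherever an odd number and the next even number are both present, both libraries belong to the same condition. Among the resilient libraries 4 such pairs are present. The protocol text names NAc punches for every library, including the 17 labelled PFC, so the region rests on the tissue label and the title. Cells were pulled out with beads against ACSA-2, an epitope carried by the sodium pump subunit ATP1B2 on astrocytes. Total RNA, at picogram amounts, was sequenced without selection for polyadenylated transcripts.

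The NAc lies in the ventral striatum, which arises from the subpallium and is built mainly of GABAergic projection neurons that receive dopamine. The prefrontal cortex arises from the pallium and is built mainly of glutamatergic pyramidal neurons that project, among other targets, to the NAc. Astrocytes of both regions share a core of genes for glutamate uptake, potassium buffering and water transport, and they keep part of the patterning code of the territory in which they were born, so region-typical genes are known in astrocytes as well as in neurons. CREB, which the series title names, is a transcription factor that is activated through cAMP and protein kinase A.

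The counts cover whole gene spans, introns included, so reads spread over the genome add to every gene. This background cover was measured from 1479 olfactory, vomeronasal and trace amine receptor genes, which are silent in most tissues, as a percent of the level that an even spread over all genes would give. It averaged 64.6 ± 10.5% in NAc and 47.3 ± 23.8% in PFC libraries (SD, n = 7 and 5), and the difference of 17.2 percentage points had a two-sided p of 0.144 by an exact permutation test, whose smallest possible p here was 0.00253. The NAc libraries lay between 51.1% and 81.1%. PFC replicates 1 and 2 stood apart at 24.6% and 19.03%, against 60.4% to 71.5% in the other 3. No NAc library had a background that low, so the adjustment at low background rests on PFC libraries alone. Total counts ran from 3.16 to 37.3 M in NAc and from 1.60 to 20.3 M in PFC libraries (exact permutation p = 0.242). The share of counts on mitochondrial genes was 0.868 ± 0.454% in NAc and 2.09 ± 1.35% in PFC (exact permutation p = 0.0505). Fold changes below are log2 NAc over PFC at equal background, with the background percent as covariate, and are given with their standard error.

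**Figure D1:**
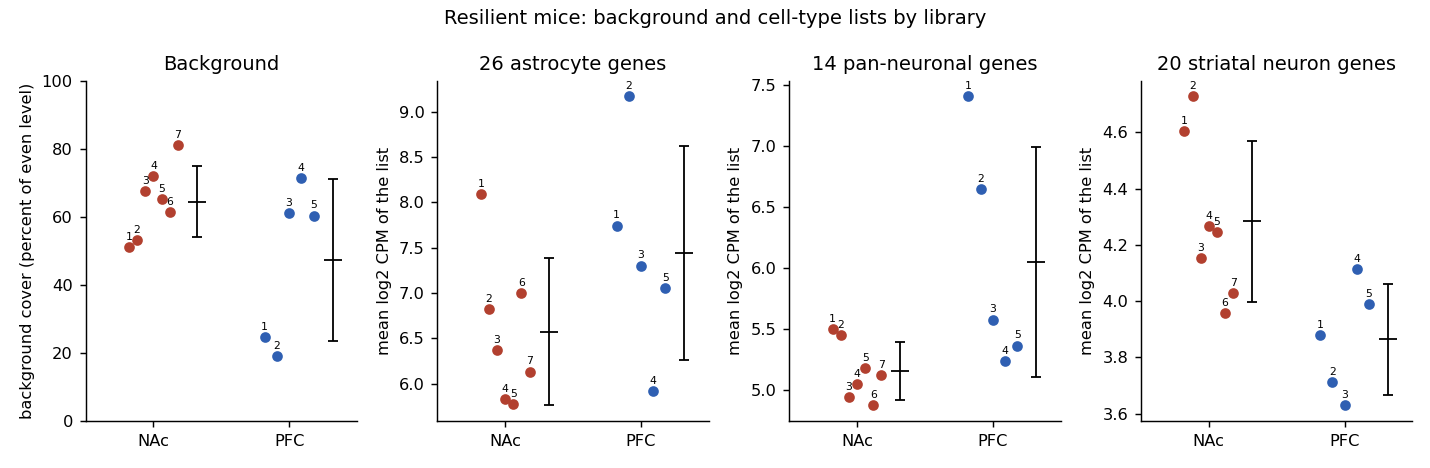
Background cover (percent of the even level) and mean log2 CPM of 3 gene lists in each resilient library, NAc to the left of PFC. CPM are counts scaled to the TMM-adjusted library size, not to the library total. Points are libraries numbered by replicate, with mean and SD beside them. PFC replicates 1 and 2 have the 2 lowest background values, at 24.6% and 19.03%, and the 2 highest pan-neuronal levels.

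The sorted material held astrocyte transcripts in both regions. Per length (as FPKM), Atp1b2, the gene of the sorted epitope, stood at 55.7 times the receptor level in NAc and 178 times in PFC. Slc1a3, a glutamate transporter of astrocytes, stood at 16.3 times in NAc and 36.8 times in PFC. Aqp4, the water channel of astrocyte endfeet, stood at 6.54 and 20.6 times. Aldh1l1, another astrocyte marker, stood lower, at 2.17 and 3.28 times. Among the neuronal genes described below, Slc17a7 stood at 15.4 times, Nrgn at 16.4 times and Snap25 at 7.28 times in PFC. In NAc these neuronal genes stood at 1.93, 2.27 and 1.59 times. The 26 astrocyte identity genes had a median log2 fold change of 0.05 at equal background, with 16 positive and 10 negative, and 0 of them had an unadjusted p under 0.05. Without the covariate their median was −1.11 and all 26 were negative. Atp1b2 was measured at 63.7, 116 and 455 CPM (lowest, median and highest) in NAc, against 547, 1260, 392, 88.2 and 232 CPM in PFC replicates 1 to 5. Its fold change was −0.40 ± 0.47, against −1.59 without the covariate (edgeR unadjusted p = 0.412 and 0.016). The lowest Atp1b2 values came from libraries with 65.3% background in NAc and 71.5% in PFC.

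No gene passed the threshold between the regions of resilient mice. edgeR's quasi-likelihood test called 0 of 32055 genes at an adjusted p under 0.05 (0.0%), with a smallest adjusted p of 0.664. An unadjusted p under 0.05 was reached by 671 genes (2.09%), 301 higher in NAc (0.939%) and 370 higher in PFC (1.15%). With no difference in any gene, evenly spread p-values would put a share of 0.05 under that threshold. The 671 genes were fewer than that share. The p-values were thus not evenly spread, and this count cannot tell how many genes differed. In other fits of the same 32055 genes the count was 943 with DESeq2 and 1221 with limma-trend. It was 2218 with limma-voom and 4163 with edgeR without the covariate, both above that share. DESeq2 called 5 genes, limma-voom 1 and limma-trend on log2 FPKM 0. With libraries of consecutive mouse numbers as a block, which rests on 4 pairs, edgeR called 11 genes, all lower in NAc and Atp1b2, Slc1a2 and Glul among them, and 0 with that block and no covariate. The DESeq2 calls were Crym and C4b, higher in NAc, and Hbb-bs, Hba-a2 and Egr3, lower in NAc. CPM of the regions did not overlap for 35 genes higher in NAc (0.109%) and 47 higher in PFC (0.147%). Over all genes tested the median fold change was 0.02. Without the covariate 39 of the 55 named genes moved by over 1.5 times with the same sign, and 7 changed sign. All genes below are given by their values, and each had an adjusted p of 0.664 or above in edgeR.

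Crym had the smallest p of the genes with higher levels in NAc. It encodes mu-crystallin, a thyroid hormone binding protein that in mice marks a population of striatal astrocytes, and it lies at chr7:120186380-120202111 (mm10, minus strand). It was measured at 24.1, 60.5 and 132 CPM (lowest, median and highest) in NAc, against 21.9, 19.6, 18.7, 14.1 and 14.8 CPM in PFC. The lowest NAc library stood above the highest PFC library. The fold change was 2.25 ± 0.43 (unadjusted p = 0.000303, DESeq2 adjusted p = 0.000128). It was 1.89 without the covariate, 1.97 without NAc replicate 1 and 1.92 without the 2 low-background PFC libraries. With a block it was smaller, 1.32 with replicate numbers and 1.23 with consecutive mouse numbers.

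C4b, a complement component made by astrocytes among other cells, lies at chr17:34728380-34743882. It was measured at 19.6, 29.4 and 115 CPM in NAc, against 23.5, 31.1, 12.7, 11.0 and 15.6 CPM in PFC, so the regions overlapped. Its fold change was 1.69 ± 0.37 (unadjusted p = 0.000627), 1.08 without the covariate and 1.12 without NAc replicate 1. C4b has a near-identical copy, C4a, next to it, so how reads were split between them is uncertain. Fzd5, a Wnt receptor at chr1:64730558-64737751, was measured at 7.13, 9.49 and 43.6 CPM in NAc, against 2.96, 8.07, 5.35, 3.73 and 4.38 CPM in PFC. The fold change was 1.97 ± 0.50, and 1.24 without NAc replicate 1, the library with the highest value of both C4b and Fzd5. For both genes 1 PFC library, replicate 2, reached into the NAc range, and for C4b replicate 1 did too.

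The other genes that the naming rule gave on the NAc side had smaller differences or leaned on the covariate. Efnb2, a transmembrane ephrin, was measured at 34.6, 38.5 and 63.4 CPM in NAc, against 53.2, 46.1, 23.4, 28.2 and 25.2 CPM in PFC, with a fold change of 0.64 ± 0.15, and 0.26 without the covariate (unadjusted p = 0.281). Its 2 highest PFC values came from the low-background libraries. Rgs9, a regulator of G-protein signalling that is abundant in striatal neurons, was measured at 61.8, 73.2 and 119 CPM in NAc, against 46.6, 40.4, 40.2, 62.9 and 54.8 CPM in PFC. Only the PFC value of 62.9 CPM exceeded the lowest NAc value, and the fold change was 0.71 ± 0.19 with the covariate and 0.72 without it. Paqr6, a membrane progestin receptor, had a fold change of 0.98 ± 0.24, Shisa2, an attenuator of Wnt and FGF signalling, 1.10 ± 0.33, and Vamp1, a vesicle SNARE, 0.42 ± 0.13. Without the covariate these were 0.49, 0.49 and 0.18, with unadjusted p of 0.120, 0.264 and 0.315. Fabp7, the brain lipid-binding protein of radial glia and astrocytes, stood at 1.13 ± 0.29 with the covariate and at −0.47 without it. Nnat, the imprinted gene of neuronatin, stood at 1.38 ± 0.38 with the covariate and at −0.19 without it. The direction of Fabp7 and Nnat thus turned with the covariate.

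**Figure D2:**
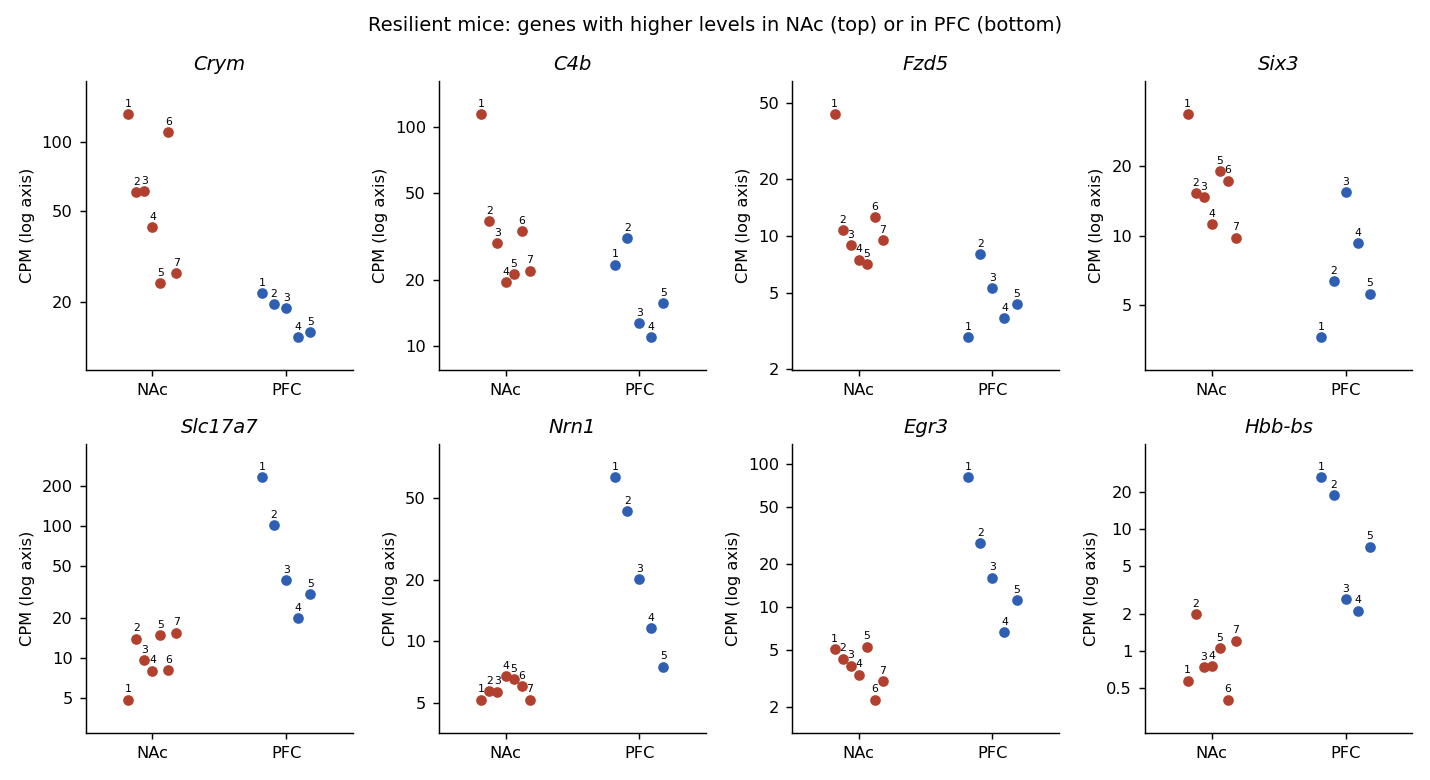
CPM (log axis) of 8 genes in each resilient library, NAc to the left of PFC, points numbered by replicate. The lowest NAc value of Crym (24.1 CPM) lies above its highest PFC value (21.9 CPM), and the highest NAc value of Slc17a7 (15.6 CPM) below its lowest PFC value (20.2 CPM), while the regions overlap for C4b, Fzd5 and Six3.

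On the PFC side the smallest p belonged to Hbb-bs, the gene of adult beta globin, at chr7:103826534-103828096. It was measured at 0.405, 0.763 and 2.00 CPM (lowest, median and highest) in NAc, against 26.3, 18.7, 2.68, 2.15 and 7.12 CPM in PFC. No NAc library reached the lowest PFC library. The fold change was −2.18 ± 0.38 (unadjusted p = 2.07e-05, adjusted p = 0.664), and −3.55 without the covariate. Per length Hbb-bs stood at 1.35 times the receptor level in NAc, close to background, and at 16.0 times in PFC. Hba-a1, an alpha globin gene, had a fold change of −1.97 ± 0.53, and in 1 PFC library, replicate 3, it stood at 1.34 CPM, inside the NAc range. PFC replicate 3 had only 1.60 M counts, so its globin values rest on few reads. Reads of the alpha globin pair and of the beta globin pair may have been split between near-identical copies. Of 12 endothelial genes measured beside them, 10 were negative with a median of −0.17, and 0 had an unadjusted p under 0.05. Their summed level ran from 534 to 633 CPM in NAc and from 590 to 1018 CPM in PFC, and none was at 0 in any library. The part of blood in the globin difference was not tested.

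Slc17a7, the vesicular glutamate transporter of cortical pyramidal neurons (chr7:45163949-45176142), was measured at 4.86, 9.60 and 15.6 CPM in NAc, against 235, 101, 38.8, 20.2 and 30.4 CPM in PFC. The regions did not overlap, and the fold change was −1.74 ± 0.53 (unadjusted p = 0.00814). It was −3.01 without the covariate and −1.42 without the 2 low-background PFC libraries. Nrn1, neuritin, an activity-regulated protein that promotes neurite growth (chr13:36725361-36735131), was measured at 5.21, 5.70 and 6.75 CPM in NAc, against 63.2, 43.2, 20.1, 11.6 and 7.53 CPM in PFC. Every NAc library lay below every PFC library, with a fold change of −1.28 ± 0.30, and −2.30 without the covariate. Per length, NAc levels of Nrn1 were 1.31 times the receptor level, against 6.64 times in PFC.

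Car4, a membrane-bound carbonic anhydrase, was measured at 6.74, 8.68 and 10.3 CPM in NAc, against 28.5, 52.5, 20.7, 12.3 and 12.5 CPM in PFC, again without overlap, with a fold change of −0.80 ± 0.20. Grasp, a scaffold for group I metabotropic glutamate receptors, did not overlap either, at −1.03 ± 0.28. Rgs4, which shortens Gq and Gi signals, stood at −0.86 ± 0.22 and C1ql3, a secreted synaptic organiser, at −1.004 ± 0.26. Lcat, which esterifies cholesterol in lipoproteins and is made by astrocytes in the brain, stood at −0.996 ± 0.29, with 2.73, 3.66 and 6.07 CPM in NAc, against 20.5, 62.3, 16.1, 4.95 and 7.39 CPM in PFC. For Lcat and C1ql3 the overlap came from PFC replicate 4, and for C1ql3 also from replicate 5.

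As a group, markers of cortical excitatory neurons had lower levels in NAc. Of 18 genes tested 15 were negative, with a median of −0.41, and 7 reached an unadjusted p under 0.05 in that direction (1.15% of all genes did), against 1 in the other (0.939%). Of the 18 genes 10 were above background, with a mean FPKM of at least 2 times the receptor level. The members named besides Slc17a7 and Nrn1 were Neurod2 (−1.08 ± 0.45) and Neurod6 (−0.90 ± 0.38), transcription factors of pyramidal neurons. Pan-neuronal genes were measured beside them. All 14 pan-neuronal genes were negative with a median of −0.26, and their summed level ran from 1044 to 1447 CPM in NAc and from 1272 to 4723 CPM in PFC, with none at 0 in any library. The largest sums were those of the low-background PFC replicates 1 and 2. Snap25, a SNARE of synaptic vesicle release, was measured at 34.6, 52.3 and 65.4 CPM in NAc, against 602, 271, 117, 67.8 and 75.2 CPM in PFC, with a fold change of −0.96 ± 0.35 and no overlap. Syp (−0.83 ± 0.29), Syn1 (−0.86 ± 0.34) and Thy1 (−0.50 ± 0.24), the other pan-neuronal genes named, overlapped. Of the 14 pan-neuronal genes 9 were above background. Syn1 was not, at 0.82 times the receptor level in NAc and 3.34 times in PFC. In sorted bulk samples fewer neurons and less RNA per neuron cannot be told apart, and the part of neuronal RNA in the PFC-side genes was not tested.

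Markers of striatal projection neurons pointed the other way. Of 20 genes tested 18 were positive, with a median of 0.41. An unadjusted p under 0.05 with higher levels in NAc was reached by 7 (0.939% of all genes did). Of the 20 genes 9 were above background. No member was separated between the regions. Besides Rgs9 the named members were Isl1 (0.57 ± 0.21), a homeobox factor of direct pathway neurons, Ppp1r1b (0.87 ± 0.32), which encodes the protein phosphatase inhibitor DARPP-32, and Scn4b (0.49 ± 0.19), a sodium channel beta subunit. Isl1 was measured at 6.48, 7.28 and 10.0 CPM in NAc, against 1.57, 1.73, 4.02, 6.88 and 5.34 CPM in PFC, and per length it stood at 1.46 and 0.94 times the receptor level, close to background. Ppp1r1b stood at 0.20 without the covariate. The summed level of the list ran from 877 to 1639 CPM in NAc and from 1007 to 1564 CPM in PFC. Its median was lower in NAc, at 999 against 1136.5 CPM. The mean log2 level, in which each gene weighs alike, had a median of 4.24 in NAc and 3.88 in PFC. In PFC replicate 3, the library with the fewest counts, 2 members were at 0. In control mice the median of the same list was 0.03 and in susceptible mice 0.16.

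Patterning factors of the subpallium mostly had higher levels in NAc. Of 17 subpallial factors tested 14 were positive with a median of 0.13. An unadjusted p under 0.05 was reached by 4, all higher in NAc (0.939% of all genes were). Only 2 of the 18 listed were above background, and Six3, Six3os1, Rarb and Isl1 were not. Six3, a homeobox factor of the developing striatum (chr17:85613608-85629302), was measured at 9.80, 15.3 and 33.3 CPM in NAc, against 3.65, 6.34, 15.4, 9.29 and 5.61 CPM in PFC. Only PFC replicate 3 reached into the NAc range, and the fold change was 1.22 ± 0.36 with the covariate and 1.18 without it. Per length Six3 stood at 2.32 times the receptor level in NAc and 1.33 times in PFC. Its antisense neighbour Six3os1, named after its values were seen, stood at 1.26 ± 0.32. The strand setting of the counting is not given, so reads of the overlapping pair cannot be told apart. Rarb, a retinoic acid receptor of the striatum, stood at 0.29 ± 0.13. Isl1 belongs to this list as well as to the striatal neuron list.

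Pallial factors mostly had lower levels in NAc. Of 18 tested 15 were negative with a median of −0.25. An unadjusted p under 0.05 was reached by 4, all lower in NAc (1.15% of all genes were). Otx1, a homeobox factor of cortical neurons and progenitors, was measured at 5.21, 6.19 and 11.4 CPM in NAc, against 15.1, 44.1, 22.1, 8.37 and 18.3 CPM in PFC, with a fold change of −0.98 ± 0.31. PFC replicate 4, which had the highest background in PFC, was the only one inside the NAc range. Neurod2 and Neurod6 belong to this list as well as to the cortical neuron list.

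Among 16 genes known to be unevenly expressed by astrocytes of different regions, 9 were positive and 7 negative with a median of 0.20. An unadjusted p under 0.05 was reached by 3 with higher levels in NAc (0.939% of all genes) and 2 with lower levels (1.15%). Chrdl1, an astrocyte-secreted factor that matures synapses and is known from cortical astrocytes (chrX:143285674-143394262), was measured at 25.02, 33.7 and 41.9 CPM in NAc, against 85.6, 198, 74.3, 41.2 and 60.6 CPM in PFC. Only PFC replicate 4 fell inside the NAc range, and the fold change was −0.88 ± 0.25 (−1.46 without the covariate). Per length Chrdl1 was not above background, at 0.67 times the receptor level in NAc and 1.95 times in PFC. Eogt, a glycosyltransferase that acts on Notch receptors, stood at −0.42 ± 0.16. Sparc, a matricellular protein that limits synapse formation, stood at 0.59 ± 0.19 with the covariate and at −0.13 without it.

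**Figure D3:**
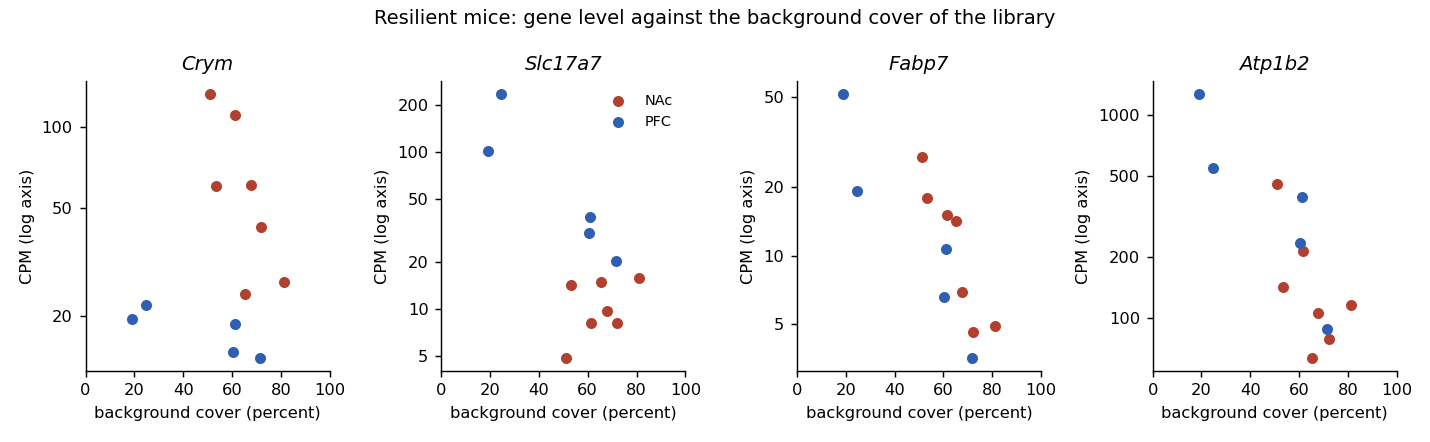
CPM (log axis) against background cover (percent) for 4 genes in the resilient libraries, NAc and PFC in separate colours. Atp1b2 stands at 116 CPM in the NAc library with 81.1% background and at 1260 CPM in the PFC library with 19.03%, the regions mix for Fabp7, and no PFC library reaches the lowest NAc value of Crym.

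Immediate early genes, which are induced by neuronal activity and many of which are CREB targets, mostly had lower levels in NAc. Of 17 tested 11 were negative with a median of −0.20. An unadjusted p under 0.05 was reached by 3, all lower in NAc (1.15% of all genes were). Egr3, a zinc finger factor (chr14:70077203-70082614), was measured at 2.27, 3.91 and 5.31 CPM in NAc, against 80.6, 28.0, 16.1, 6.71 and 11.2 CPM in PFC. No NAc library reached the lowest PFC library, and the fold change was −1.60 ± 0.35 (unadjusted p = 0.000335, DESeq2 adjusted p = 0.031). Arc, a capsid-like protein of the postsynapse, was measured at 2.92, 4.84 and 8.44 CPM in NAc, against 76.9, 31.4, 9.37, 5.83 and 10.7 CPM in PFC, with a fold change of −0.88 ± 0.29. Fos, a subunit of the AP-1 factor, stood at −0.78 ± 0.26 and Egr1 at −0.77 ± 0.36. The highest values of Egr3, Arc and Egr1 were in PFC replicates 1 and 2, the libraries with the largest pan-neuronal sums, and the part of neurons in these differences was not tested.

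The genes of CREB and its partners lay near the median of all genes. Creb1 was measured at 36.7, 48.9 and 68.3 CPM in NAc, against 75.7, 84.2, 60.2, 44.1 and 55.0 CPM in PFC, with a fold change of −0.06 ± 0.15 (unadjusted p = 0.703). Per length it stood at 1.53 times the receptor level in NAc and 2.15 times in PFC, close to background in NAc. Of 15 genes of the CREB family and its coactivators 8 were positive and 7 negative with a median of 0.02. Of these 1, the coactivator Crtc3 (0.30 ± 0.12), had an unadjusted p under 0.05 (0.939% of all genes in that direction). Without the covariate Crtc3 stood at 0.0089 (unadjusted p = 0.963). The coactivator Crtc2 (0.26 ± 0.21) and the factors Crebl2 (0.17 ± 0.13) and Creb3l2 (0.10 ± 0.11) did not reach that threshold. Of 19 genes of cAMP and protein kinase A signalling 9 were positive and 10 negative with a median of −0.01. Ppp1r1b and Adcy5, the main adenylyl cyclase of striatal neurons (0.40 ± 0.17), had higher levels in NAc. Prkar1b, a regulatory subunit of protein kinase A in neurons, had lower levels in NAc (−0.44 ± 0.20). Each had an unadjusted p under 0.05, which 0.939% of all genes had with higher and 1.15% with lower levels in NAc. Adcy9, another adenylyl cyclase, stood at −0.17 ± 0.12.

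CREB binds the cAMP response element TGACGTCA and the shorter core TGACG. The promoters below show genes with higher levels in NAc, with the core (Efnb2) and without it (Fzd5), and genes with lower levels in NAc, with the core (Fos), with the full element (Syn1) and without either (Slc17a7). They were picked after a search of the named genes. Each sequence runs 5′ to 3′ on the strand of the gene, from 250 bases before to 50 bases after the start of the RefSeq gene on GRCm38.p6, in lower case with every TGACG of either strand in capitals.
Fzd5 (chr1:64737701-64738000, strand −): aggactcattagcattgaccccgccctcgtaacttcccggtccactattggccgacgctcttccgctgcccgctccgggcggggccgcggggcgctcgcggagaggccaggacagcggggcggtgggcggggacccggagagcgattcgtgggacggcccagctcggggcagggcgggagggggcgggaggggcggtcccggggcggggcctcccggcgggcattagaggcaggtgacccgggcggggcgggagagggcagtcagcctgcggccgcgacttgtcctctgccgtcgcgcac
Efnb2 (chr8:8661193-8661492, strand −): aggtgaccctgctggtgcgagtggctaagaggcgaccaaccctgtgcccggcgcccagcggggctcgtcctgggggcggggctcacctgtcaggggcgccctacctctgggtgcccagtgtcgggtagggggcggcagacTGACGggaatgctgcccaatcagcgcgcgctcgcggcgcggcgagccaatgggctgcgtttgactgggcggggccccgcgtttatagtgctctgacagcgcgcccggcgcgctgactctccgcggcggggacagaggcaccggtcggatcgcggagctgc
Fos (chr12:85473640-85473939, strand +): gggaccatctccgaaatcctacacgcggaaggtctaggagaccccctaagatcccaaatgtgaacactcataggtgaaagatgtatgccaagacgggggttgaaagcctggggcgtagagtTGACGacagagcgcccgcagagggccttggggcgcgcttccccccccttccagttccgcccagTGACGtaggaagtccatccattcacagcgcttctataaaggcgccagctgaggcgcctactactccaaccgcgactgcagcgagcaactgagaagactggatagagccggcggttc
Syn1 (chrX:20920869-20921168, strand −): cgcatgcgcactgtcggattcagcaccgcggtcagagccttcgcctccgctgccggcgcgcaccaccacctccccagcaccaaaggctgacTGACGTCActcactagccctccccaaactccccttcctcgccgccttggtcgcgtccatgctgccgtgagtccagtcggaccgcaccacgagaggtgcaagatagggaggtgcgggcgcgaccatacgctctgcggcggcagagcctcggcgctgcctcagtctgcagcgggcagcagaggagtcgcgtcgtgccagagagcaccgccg
Slc17a7 (chr7:45163671-45163970, strand +): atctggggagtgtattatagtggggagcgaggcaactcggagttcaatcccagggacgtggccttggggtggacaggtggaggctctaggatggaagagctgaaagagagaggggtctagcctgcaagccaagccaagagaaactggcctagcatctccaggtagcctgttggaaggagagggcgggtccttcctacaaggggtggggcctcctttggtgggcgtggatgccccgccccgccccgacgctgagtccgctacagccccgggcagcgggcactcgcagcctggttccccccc
Counting from the gene start, Fos holds the core at positions −129 and −66. Syn1 holds it at −159 and, on the other strand, at −156, and the overlapping pair forms 1 full element. Efnb2 holds it at −110. The windows of Fzd5 and Slc17a7 hold neither motif. Of 32851 RefSeq promoters of this length, 20.8% hold the core on either strand and 1.79% the full element. Of the 55 named genes 38 had a promoter among them, and the core was held by 4 of 19 with a positive fold and by 6 of 19 with a negative fold.

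The same region comparison in control mice, whose 13 libraries share none with the resilient mice, gave 101 calls among 35323 genes (0.286%), 21 higher in NAc (0.0595%) and 80 higher in PFC (0.226%). All 101 were tested in resilient mice, and all 101 had the same sign there, while 53.5% of all genes tested were positive and 46.5% negative. An unadjusted p under 0.05 was reached in resilient mice by 63 of them (2.09% of all genes), 11 of the 21 and 52 of the 80. CPM of resilient libraries did not overlap for 2 of the 21 (0.109% of all genes in that direction) and 9 of the 80 (0.147%). The fold was smaller in resilient than in control mice for 96 of the 101. The median of the 21 was 0.57 in resilient mice, 0.60 in susceptible mice and 1.07 in control mice. The median of the 80 was −0.65 in resilient mice, −0.59 in susceptible mice and −1.18 in control mice. These genes are not independent of each other, and a fold chosen for passing a threshold tends to be large in the libraries that chose it. In susceptible mice, again in separate libraries, edgeR called 0 of 33882 genes, with 1247 at an unadjusted p under 0.05. There 101 of the 101 had the same sign and 57 an unadjusted p under 0.05 (3.68% of all genes tested there). The control count itself depended on the covariate, with 3 calls without it, all higher in NAc.

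**Figure D4:**
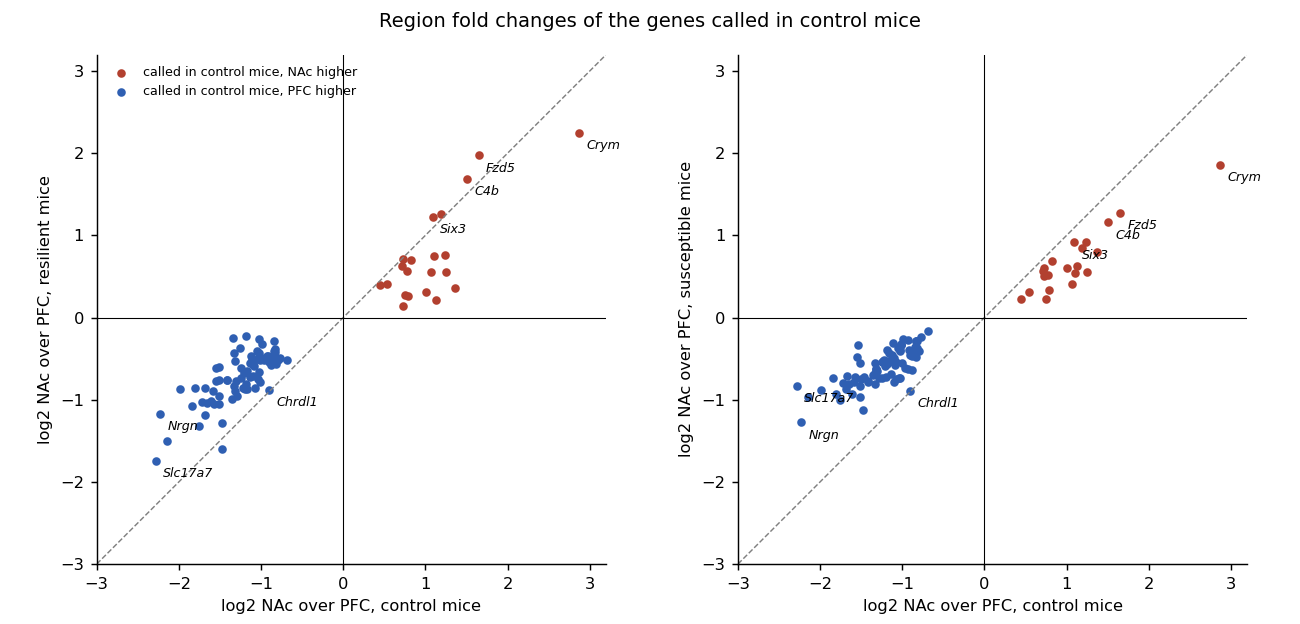
Log2 fold changes, NAc over PFC, of the 101 genes called in control mice, in resilient mice (left panel) and susceptible mice (right panel) on the vertical axis against control mice on the horizontal axis. The dashed line marks equal folds. All points lie in the quadrants of equal sign, and in resilient mice 96 of 101 lie nearer to 0 than in control mice.

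Crym had a fold change of 2.25 ± 0.43 in resilient mice against 2.87 ± 0.32 in control mice, Fzd5 1.97 ± 0.50 against 1.65 ± 0.18, and C4b 1.69 ± 0.37 against 1.51 ± 0.17, each with an edgeR adjusted p of 0.000683 in control mice. Six3 stood at 1.22 ± 0.36 against 1.09 ± 0.18 and Chrdl1 at −0.88 ± 0.25 against −0.91 ± 0.14. Neuronal genes gave the following values. Slc17a7 stood at −1.74 ± 0.53 in resilient mice against −2.28 ± 0.32 in control mice, and Nptxr, a neuronal pentraxin receptor, at −1.50 ± 0.50 against −2.15 ± 0.27. Nrgn, a calmodulin-binding protein of excitatory synapses, stood at −1.17 ± 0.46 against −2.23 ± 0.31, Dnm1, the dynamin of synaptic vesicle uptake, at −0.76 ± 0.26 against −1.41 ± 0.22, and Olfm1, a secreted neuronal glycoprotein, at −0.81 ± 0.26 against −1.18 ± 0.17. Nptxr, Nrgn, Dnm1 and Olfm1 were chosen after their values were seen. Mobp and Mbp, myelin genes called in control mice at 1.37 and 1.12, stood at 0.36 and 0.21 in resilient mice, and the 19 oligodendrocyte genes had a median of 0.16 in resilient, 0.41 in susceptible and 0.90 in control mice.

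Whether the region difference itself differed between conditions was tested in 1 fit of all 39 libraries. edgeR called 0 of 38171 genes for resilient against control mice (0.0%), with 943 at an unadjusted p under 0.05 (2.47%), and DESeq2 called 0. Of the 101 genes called in control mice 25 were among those 943. The smallest p under the naming rule belonged to Caly, the gene of the neuronal vesicle protein calcyon (0.93 ± 0.28), Myh14, a nonmuscle myosin (−0.52 ± 0.16), Fam84a (1.01 ± 0.32), Fam131a (0.79 ± 0.25) and Syt17 (0.52 ± 0.17), each with an adjusted p of 1. Against susceptible mice edgeR called 0 genes (0.0%), with 638 at an unadjusted p under 0.05 (1.67%), and DESeq2 called 1, Acta2, with an adjusted p of 0.0307. Acta2 encodes smooth muscle actin, and its interaction was 1.43 ± 0.28 (edgeR adjusted p = 0.200). Acta2 averaged 13.2 ± 2.91 CPM in NAc and 13.04 ± 3.63 CPM in PFC of resilient mice (SD, n = 7 and 5), and 11.8 ± 2.86 CPM in NAc and 31.0 ± 21.4 CPM in PFC of susceptible mice (SD, n = 8 and 6). In resilient mice the means of the regions differed by less than their SDs, and the highest mean, with the widest spread, was that of PFC in susceptible mice. The other genes given by the rule were Fam84a (1.10 ± 0.31), Lsm7 (1.06 ± 0.31), Mospd3 (0.95 ± 0.31) and Tsen34 (0.76 ± 0.26).

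**Figure D5:**
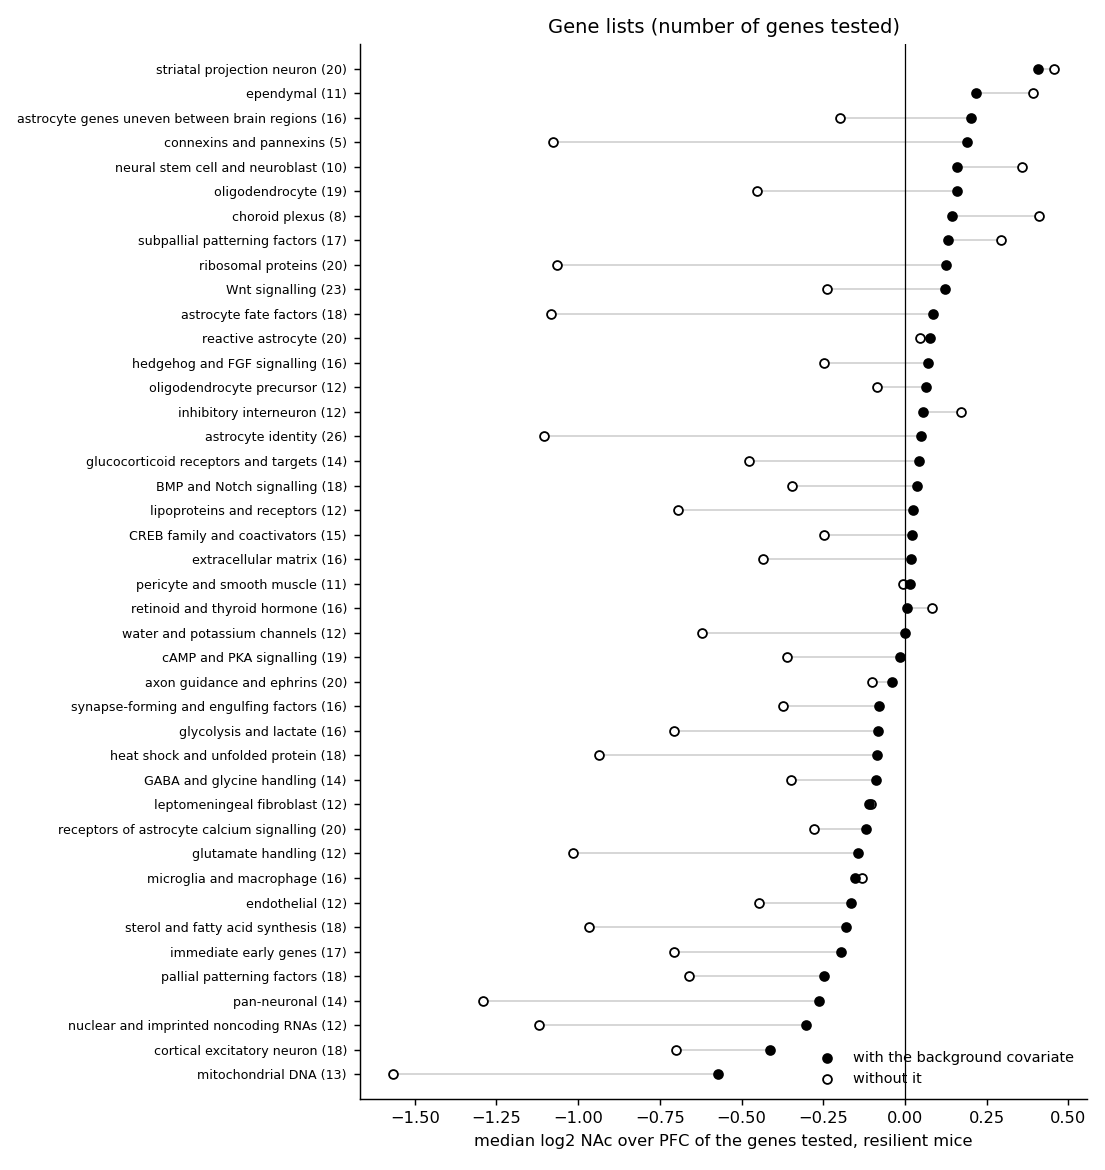
Median log2 fold change, NAc over PFC, of each gene list in resilient mice, with the background covariate (filled) and without it (open), with the number of genes tested in brackets. With the covariate the striatal neuron list has the highest median (0.41) and the mitochondrial list the lowest (−0.57), and without it the astrocyte identity list moves from 0.05 to −1.11.

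Lists of astrocyte function lay near the median of all genes once background was equal. Genes of glutamate handling had a median of −0.14 (3 of 12 positive), water and potassium channels 0.00 (6 of 12), connexins and pannexins 0.19 (3 of 5), and GABA and glycine handling −0.09 (6 of 14). Synapse-forming and engulfing factors stood at −0.08 (6 of 16), extracellular matrix genes at 0.02 (10 of 16), and receptors of astrocyte calcium signalling at −0.12 (7 of 20). Reactive astrocyte genes stood at 0.08 (14 of 20), and C4b was the only one of them with an unadjusted p under 0.05. Retinoid and thyroid hormone genes, which include Crym, stood at 0.01 (8 of 16) and Wnt signalling genes, which include Fzd5, at 0.12 (17 of 23). All 13 mitochondrial genes were negative with a median of −0.57, 0 of them at an unadjusted p under 0.05, and −1.57 without the covariate. All 12 nuclear and imprinted noncoding RNAs were negative with a median of −0.30, 2 at an unadjusted p under 0.05 (1.15% of all genes). The summed level of these RNAs ran from 2334 to 7821 CPM in NAc and from 2608 to 19135 CPM in PFC.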

How the data were processed

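RNA was sequenced from ACSA-2-sorted astrocytes. The authors deposited a raw count of reads for each of 55401 genes, with featureCounts and the build mm10 named in the submitters' processing notes. The sources used here give no version, aligner or strand setting. FPKM, also deposited, are the same counts per gene length and library total. The implied lengths equalled the whole gene span of GENCODE M21 for 54229 of 54229 genes compared, within a relative difference of 1e-06. Gene names and coordinates are from that release, which named 55141 genes and left 260 without a name. The members and all gene lists were chosen with earlier results of these data known, and so was the background measure.

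Counts were tested with edgeR 4.0.16 in R 4.3.3 (TMM scaling, filterByExpr with a minimum count of 10, robust quasi-likelihood test, Benjamini-Hochberg adjustment over all genes tested, threshold 0.05), on the 12 resilient libraries with the background percent as covariate. The background percent is the receptor FPKM over 0.764, the FPKM of an even spread over 1308.8 Mb of summed gene spans. The scripts were tested on simulated data. Control and susceptible libraries were fitted likewise, and the interactions came from 1 fit of all 39. Libraries were treated as separate mice, and p-values measure the spread between them. If neighbouring numbers stand for 1 animal, the main p-values ignore that pairing. No 2 libraries held identical counts. CPM values were scaled to the TMM-adjusted library size, whereas FPKM follow the library total, so their order can differ. Crym stood at 19.6 CPM in PFC replicate 2 and at 14.8 CPM in PFC replicate 5. In FPKM these values were 0.868 and 0.988. Totals of 1.60 to 37.3 M counts limit low genes most. A gene above background had a mean FPKM of at least 2 times the receptor level.

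Named genes were those above background with an average log2 CPM over 1, predicted genes and receptors left out: in each direction, since none passed, the 10 smallest p. Up to 4 members of each list described, 4 astrocyte markers and Creb1 were added. For each interaction the 5 smallest p were named. A few genes that this rule gives are not reported here. The other 5 genes, Nptxr, Nrgn, Olfm1, Dnm1 and Six3os1, were chosen by their values. Alternatives were DESeq2 1.42.0, limma 3.58.1 (limma-trend on log2(FPKM + 0.5)), other scalings, filters and covariates, blocks, and leaving out each resilient library in turn. Leaving out the 2 low-background PFC libraries together, and the count of control calls with the same sign, were added after the data were seen.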

Additional observations from a re-analysis of the deposited data

Results flagged for a closer look

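A library was picked out where its gap to the nearest library of its group was large for the group's range (Dixon's criterion). This marked 23 of 116 groups examined (19.8%), and every marked library was the highest of its group. The criterion marks about 1 in 20 by chance only where values are normally distributed. It was applied to values without a log, so whether 19.8% exceeds chance cannot be told from it. The groups are not independent, since the same libraries recur.

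NAc replicate 1 stood apart in 10 genes and in 1 library measure. Among genes with higher levels in NAc these were Efnb2 (63.4 CPM, next library 45.0), C4b (114.5 CPM, next 37.3), Fzd5 (43.6 CPM, next 12.6), Nnat (27.5 CPM, next 9.48), Shisa2 (16.4 CPM, next 9.10) and Six3 (33.3 CPM, next 18.9). It also stood apart in C1ql3 (6.94 CPM), Crtc3 (160.1 CPM), Atp1b2 (455 CPM) and Slc1a3 (1657 CPM), and in the mitochondrial share of its counts (1.77%). This library had the lowest background of the NAc libraries, 51.1%. Its mean log2 level was the highest of the NAc libraries for 28 of 28 function lists and for 6 of 14 cell type lists.

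PFC replicate 1 stood apart in Egr3 (80.6 CPM), Hba-a1 (25.1 CPM), Neurod2 (24.9 CPM) and Adcy5 (193 CPM). PFC replicate 2, with the lowest background of the resilient libraries, stood apart in Lcat (62.3 CPM), Chrdl1 (198 CPM), Aldh1l1 (298 CPM), Aqp4 (617 CPM) and Slc1a3 (3424 CPM). NAc replicate 3 stood apart in Isl1 (10.0 CPM), and NAc replicate 5 in Creb3l2 (119.6 CPM) and Prkar1b (145 CPM).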

How the results depend on the processing

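The count of called genes in resilient mice was 0 with edgeR and in every refit that left out 1 library (0 to 0). It was 5 with DESeq2, 1 with limma-voom (Hba-a2), 671 at an unadjusted p, and 11 with consecutive sample numbers as a block, all higher in PFC: Msmo1, Ptgds, Slc1a2, Glul, Mfge8, Aldoc, Zbtb18, Tspan7, Atp1b2, S1pr1 and AI464131. In control mice it was 3 of 35323 without the covariate, all higher in NAc. Among the 12360 control genes tested above background it was 272 (81 higher in NAc, 191 in PFC). DESeq2 called 1 gene for the resilient against susceptible difference. Of the genes called in control mice and tested, 87 to 101 kept their sign in resilient mice under all alternatives, 95 without the covariate, 91 with the replicate block. With the stricter count filter 87 of the 101 were tested and all 87 kept their sign. The number of genes called in control mice with an unadjusted p under 0.05 in resilient mice varied more. It was 63 in the main fit and ran from 6 to 89 in the other edgeR fits. It fell to 6 with the replicate block and to 24 with consecutive sample numbers as a block. With only genes above background it was 36 of 89. It rose to 87 without the covariate and to 89 in the fit of all 39 libraries without it.

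The replicate numbers were not taken as pairs. They count the libraries within a group, and no same-numbered libraries carry neighbouring mouse numbers. PFC replicate 1 is number 5 and NAc replicate 1 number 12. The replicate block thus joins no neighbouring numbers. Not every same-numbered pair correlated over 0.1 either. Same-numbered libraries correlated at −0.03 to 0.59 in their deviations from the group means, 4 of 5 pairs over 0.1, and 1 library matched its own number best. Libraries of consecutive mouse numbers correlated at −0.21 to 0.67, 3 of 4 pairs over 0.1, and that block without the covariate gave 0 calls. In deviations from the fit with the background covariate the correlations were lower. They ran from −0.39 to 0.33 for same-numbered libraries, 2 of 5 pairs over 0.1. For consecutive mouse numbers they ran from −0.29 to 0.26, 1 of 4 pairs over 0.1. The replicate block gave 0 calls and 132 genes at an unadjusted p under 0.05. Of the 55 named genes 28 moved by over 1.5 times with the same sign under the replicate block, 22 under the consecutive block and 11 without NAc replicate 1.

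Signs turned only for the genes given here. Without the covariate, in the resilient libraries alone and then in the fit of all libraries, Fabp7 stood at −0.47 and −0.43, Nnat at −0.19 and −0.17, Sparc at −0.13 and −0.11, Crebl2 at −0.16 and −0.14, Crtc2 at −0.25 and −0.21, Aldh1l1 at −0.45 and −0.42, and Slc1a3 at −1.08 and −1.06. With the replicate block Rarb stood at −0.064, Aldh1l1 at −0.060 and Slc1a3 at −0.64. With consecutive numbers as a block Aldh1l1 stood at −0.18 and Slc1a3 at −0.44, and with that block and no covariate Aldh1l1 at −0.39, Slc1a3 at −0.62, Crebl2 at −0.054 and Crtc2 at −0.0081. Without the 2 low-background PFC libraries Aldh1l1 stood at −0.045 and Slc1a3 at −0.048. In the fit of all libraries with the covariate Aldh1l1 stood at −0.0040 and Creb1 at 0.039, Slc1a3 with the log2 covariate at −0.011, and Aqp4 with limma-voom at 0.035. Leaving out single libraries, Atp1b2 ranged from −0.78 to 0.016, Aldh1l1 from −0.094 to 0.15, Aqp4 from −0.50 to 0.11, Slc1a3 from −0.30 to 0.34 and Creb1 from −0.17 to 0.0029. The causes were not tested. Depth limits genes of a few CPM most in PFC replicate 3, with 1.60 M counts.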

Other observations

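Several gene groups of general cell function kept a median near that of all genes at equal background and moved with the covariate. The 20 ribosomal protein genes had a median log2 fold change, NAc over PFC, of 0.13 with the covariate and −1.06 without it. The 18 heat shock and unfolded protein genes stood at −0.08 and −0.94, the 18 genes of sterol and fatty acid synthesis at −0.18 and −0.97, and the 16 genes of glycolysis and lactate at −0.08 and −0.71. The 12 lipoprotein genes stood at 0.02 and −0.70 and the 18 astrocyte fate factors at 0.09 and −1.08. The 14 glucocorticoid receptor and target genes stood at 0.04 and −0.48. In control mice, with the covariate, the ribosomal list had a median of 0.32 and the heat shock list 0.28.

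Developmental signalling lists lay close to 0. Hedgehog and FGF genes had a median of 0.07 (11 of 16 positive), BMP and Notch genes 0.04 (10 of 18). Axon guidance genes had a median of −0.04 (9 of 20). Of the latter 1, Efnb2, had an unadjusted p under 0.05 on the NAc side (0.939% of all genes) and 2 on the PFC side (1.15%).

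Other cell types differed little by value. Oligodendrocyte precursor genes had a median of 0.07 (7 of 12 positive), inhibitory interneuron genes 0.06 (7 of 12), pericyte and smooth muscle genes 0.01 (6 of 11), leptomeningeal fibroblast genes −0.11 (3 of 12) and microglia and macrophage genes −0.15 (4 of 16). Ependymal genes stood at 0.22 (10 of 11 positive, 2 at an unadjusted p under 0.05), choroid plexus genes at 0.15 (8 of 8, 1 at an unadjusted p under 0.05) and neural stem cell and neuroblast genes at 0.16 (9 of 10, 3 at an unadjusted p under 0.05). All ependymal, choroid plexus and stem cell genes at an unadjusted p under 0.05 were higher in NAc, as were 0.939% of all genes. No choroid plexus gene was above background, and 2 of 12 ependymal genes were.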
